A study of Danio rerio with 12 samples.

Results

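The gastrula-stage comparison described here sets 3 arrays of zebrafish embryos injected with PCSK7 and p53 morpholinos against 3 arrays of embryos injected with a control morpholino, all collected 6 h after fertilization. These are 6 of the 12 arrays of the series, and the other 6 hold the same pair of groups at 24 h. Each array was hybridised with Cy3-labelled RNA from 1 pool of 18 to 35 whole embryos of the wild-type AB strain, kept at 28.5 °C. Both groups shared the stage and the dose range of injection: 0.25 to 1.0 pmol of each morpholino into the yolk between the 1-cell and the 4-cell stage. PCSK7+p53 embryos received 2 morpholinos and control embryos the control morpholino only, so the total dose may have differed between the groups. The labels give no animal with the PCSK7 morpholino alone, with the p53 morpholino alone, or uninjected, so the effects of the 2 morpholinos cannot be told apart from each other. Nothing in the labels says that the pools stem from different clutches or days of injection. The p-values therefore measure only how much these pools varied, which may be technical in part.

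A morpholino is an antisense oligonucleotide that blocks translation or splicing of a chosen transcript and need not lower that transcript. PCSK7 belongs to the proprotein convertases, secretory pathway proteases that cut precursors of growth factors and other secreted proteins into their active forms, and the series concerns its link to the growth factor TGF-beta 1a. The p53 morpholino is commonly injected alongside another to limit p53-dependent cell death after injection. At the time sampled the embryo is entering gastrulation: the zygotic genome has taken over from the maternal RNA, cells at the margin move inward to form mesoderm and endoderm, and an epithelium called the enveloping layer covers the embryo. Nodal, BMP, Wnt and FGF signals set the fates of the germ layers at this stage.

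The values are relative signals, that is, the processed signal of a probe as a percentage of the 75th percentile of its array. A probe entered the test if either group had it well above background on each of its 3 arrays, and a gene is read from its brightest tested probe. Changes are log2 of PCSK7+p53 over control embryos, with the standard error (SE) of limma's fit. A call is a limma adjusted p under 0.05 over all tested probes, and "rose" and "fell" are used of calls only. The gene lists below were chosen with earlier results of these data known, so their shares against all genes are a description. The 2 groups lay on different slides and were scanned in different sessions. All PCSK7+p53 arrays at 6 h shared a slide, whereas the control arrays at 6 h lay on a different slide each. The spread among the PCSK7+p53 arrays therefore holds no variation between slides. Their signals were read with different versions of the scanner's feature extraction software. The effects of the morpholinos, of the slide, of the session and of the software version therefore cannot be told apart. The PCSK7+p53 arrays were brighter, with 75th percentiles of 630 to 726 against 401 to 509 in control arrays. Spike-in controls moved with the groups too: the 6 brightest spike-in probes were a median 21.0-fold lower relative to the 75th percentile on PCSK7+p53 arrays. The share of either difference in the results was not tested. Arrays ranked the probes alike within a group (Spearman correlation 0.995 to 0.997 among PCSK7+p53 arrays and 0.996 to 0.997 among control arrays) and less so between groups (0.966 to 0.971).

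Much of the transcriptome differed. Of 30887 probes tested, 19418 had a call (62.9%), and of 11213 genes 7387 (65.9%), 3977 higher (35.5%) and 3410 lower (30.4%) in PCSK7+p53 embryos. Most of these differences were small: 886 genes (7.9%) rose at least 2-fold and 582 (5.19%) fell at least 2-fold, 1468 in all (13.1%). For 293 of the 886 the control signal was not above background on every array, so their fold is a fitted value. Among 10501 genes with a probe above background on all 6 arrays 594 rose and 498 fell at least 2-fold. With normexp background correction 3260 of all 11213 genes rose and 4627 fell, 286 and 305 of them at least 2-fold. Counts of list members under normexp below are to be read against these. Among probes 4172 (13.5%) had a call and changed at least 2-fold, 2485 higher (8.05%) and 1687 lower (5.46%). The groups did not overlap, with PCSK7+p53 embryos higher, at 38% of the genes and, with PCSK7+p53 embryos lower, at 33.6%. The median change over all genes was 0.03, and the median SD between arrays of a group was 0.098 in PCSK7+p53 and 0.094 in control embryos on the log2 scale. Of the calls 53.8% were higher, against 41.3% when the local background, capped at its 99th percentile, was removed by normexp, which moved the median over all genes to -0.09. Where a gene had several tested probes and a call, they differed in sign for 932 of 4261 genes, which is stated below for the genes named.

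**Figure D1:**
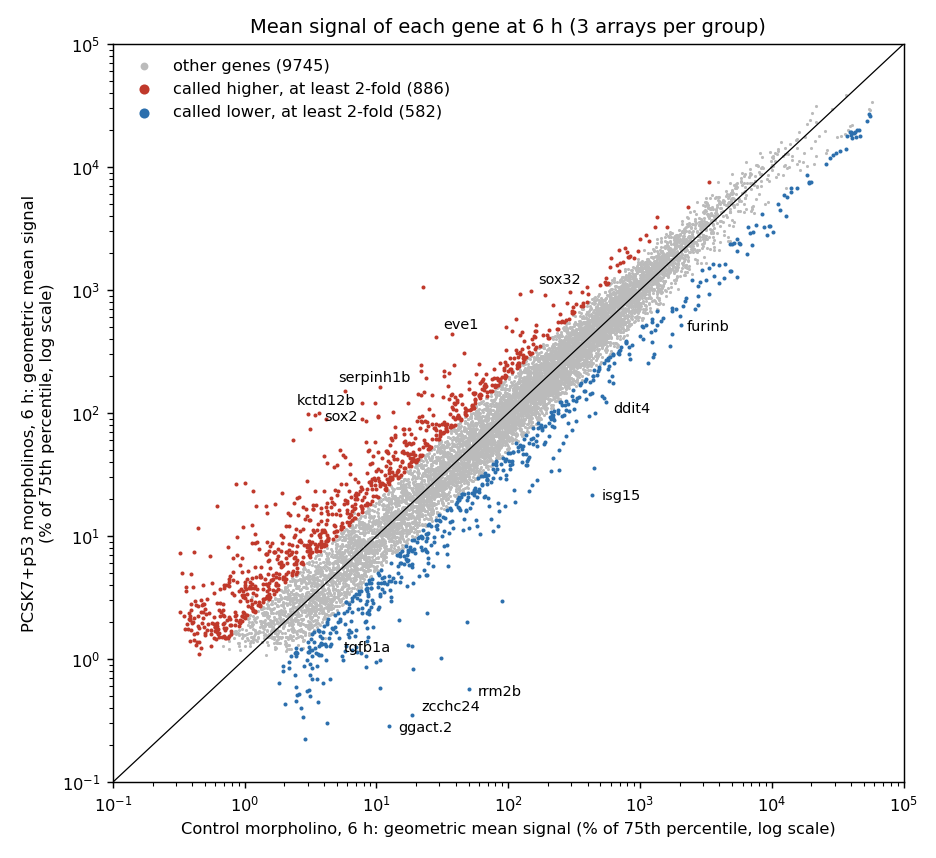
Mean relative signal of each of the 11213 genes in PCSK7+p53 embryos (vertical) against control embryos (horizontal), both on log axes in percent of the 75th percentile; each point is the geometric mean of 3 arrays per group. The 886 red genes rose and the 582 blue genes fell at least 2-fold, and the named genes lie far from the diagonal, with rrm2b, zcchc24 and ggact.2 near background in PCSK7+p53 embryos.

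Of the 12 markers chosen for a gastrula-stage embryo, all were above background on every PCSK7+p53 array at 6 h, and 11 of them, among them tbxta, gsc, sox32, vox and krt4, on every control array. The exception was the endoderm gene sox17, above background on 0 control arrays. Their summed relative signal was 14103 to 14537 in PCSK7+p53 embryos and 8488 to 10266 in control embryos. A list of genes of differentiated tissues of the older embryo gave sums of 1083 to 1634 in PCSK7+p53 and 1124 to 1329 in control embryos at 6 h, against 109815 to 121382 and 125500 to 145293 in the same groups at 24 h. Of its 35 members on the array 8 were above background on no array at 6 h. The sums of the older tissues therefore overlapped between the groups at 6 h, and those of the gastrula markers did not. At 24 h the gastrula marker sums were higher, 17625 to 22138 in PCSK7+p53 and 30472 to 34157 in control embryos. There krt4 alone gave 16792 to 21512 and 29879 to 33563, so the sum does not mark the gastrula stage. Nor did all 12 markers move alike at 6 h: vox and chrd had no call, and klf17 fell by 0.23. The older-tissue sums at 6 h rest largely on the gene stm, whose highest signal there was 1535. That of the next member, rho, was 69.8, so the overlap says little about the other members.

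The transcript of pcsk7 itself had 0 named probes, as had tgfb1b and cdkn1a, and none of them is analysed here. The ligand gene tgfb1a had relative signals of 1.71, 1.19 and 0.995 in PCSK7+p53 embryos, against 16.3, 17.4 and 22.9 in control embryos. It was above background on 1 of the 3 PCSK7+p53 arrays and on all 3 control arrays, and was 14.7-fold lower in PCSK7+p53 embryos (limma adjusted p = 1.92e-07). This is the fitted value (log2 -3.88) and not a lower bound. Both of its probes had this direction and a call, and by the other tgfb1a was at least 6.14-fold lower. Under normexp the change was -1.50.

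Convertase genes fell as well. Of 11 listed, 7 were on the array and 3 of these were not above background on all arrays of either group. The 4 tested genes all fell (median -0.39), against 30.4% of all genes. The largest fall was that of furinb, one of the zebrafish paralogs of the convertase furin. Its relative signals were 558, 627 and 661 in PCSK7+p53 embryos and 2009, 2033 and 1951 in control embryos, a fall of 1.70 on the log2 scale (SE 0.11, adjusted p = 7.5e-07). Its other probe gave -0.39 and no call. The other furin paralog, furina, fell by 0.22 (SE 0.08, adjusted p = 0.0254), with no call without PCSK7+p53 replicate 1 or control replicate 2, and pcsk5b, which encodes a convertase known in mammals to process growth and differentiation factors, fell by 0.49. The groups overlapped for mbtps1, the site-1 protease that activates sterol regulators, which fell by 0.29 and lost its call without replicate 1 or 2 of either group.

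The TGF-beta superfamily moved in both directions. Of 16 ligands tested, 5 rose (31.2%) and 4 fell (25%), and 29 receptors, smads and antagonists gave 9 higher (31%) and 11 lower (37.9%), against 35.5% and 30.4% of all genes. The ligands' median of 0.07 turned sign in 2 of 6 scalings, with percentile scaling itself counted among the 6. That of the receptors, smads and antagonists was -0.08. Among the ligands, bmp4 rose the most. This BMP, which specifies ventral and epidermal fates, had relative signals of 141, 147 and 135 in PCSK7+p53 embryos and 45.3, 51.7 and 36.6 in control embryos, a rise of 1.68 (SE 0.11, adjusted p = 7.81e-07) on 3 of 3 probes. The maternal ligand gene gdf3 (vg1) rose by 0.55 and the Nodal inhibitor lft2 by 0.67. The call on lft2 was lost without PCSK7+p53 replicate 1 or 3 or control replicate 3. In contrast bmp2b, which starts ventral patterning, fell by 0.74 (SE 0.08), the organizer ligand admp by 0.73 and tgfb3 by 0.70. The type I receptor tgfbr1a had 7.73, 7.87 and 5.72 in PCSK7+p53 embryos and 18.3, 11.8 and 13.99 in control embryos and fell by 1.04 (SE 0.16). The intracellular transducer smad2 fell by 0.93 (SE 0.08), and the common smad gene smad4a by 0.68 on 1 of 2 probes. The BMP antagonist nog1 rose by 1.22 (SE 0.11) and bambia, a pseudoreceptor, by 0.52.

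Genes with a call and above background on all 6 arrays were ranked if groups did not overlap and tested probes agreed in sign. Of these genes the 12 largest rises and 11 of the 12 largest falls are described. Highest was si:ch211-133n4.4, whose relative signals were 973, 1144 and 1038 in PCSK7+p53 embryos and 11.2, 43.5 and 23.4 in control embryos, a 46.6-fold rise (log2 5.54, SE 0.36, adjusted p = 7.18e-07). The control arrays of this gene were widely spread, yet all lay far below the lowest PCSK7+p53 array. The gene kctd12b, whose protein carries a potassium channel tetramerization domain, had 75.5, 114 and 111 in PCSK7+p53 embryos and 3.05, 2.80 and 3.20 in control embryos. This brightest kctd12b probe rose by 5.03 and the other by 2.94. The SoxB factor sox2, a regulator of neural progenitors, had 82.8, 108 and 98.0 in PCSK7+p53 embryos and 5.46, 3.27 and 2.25 in control embryos. The PCSK7+p53 arrays of sox2 lay within a narrow band, and the difference was 27.9-fold (log2 4.80, SE 0.25).

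The genes her1, mespaa, tbx16l, eve1 and sp5l, also among the 12 largest rises, belonged to the mesoderm, segmentation and organizer lists and are described with them. The collagen chaperone gene serpinh1b had 178, 223 and 88.8 in PCSK7+p53 embryos and 6.83, 4.11 and 6.81 in control embryos (log2 4.72, SE 0.30). PCSK7+p53 replicate 3 was the lowest of that group and still far above the highest control array. The galectin gene lgals1l1 rose by 3.94, the taxilin gene txlnbb by 3.63, and apol, which encodes an apolipoprotein L, by 3.52 (SE 0.16, 0.13 and 0.10).

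The largest fall was that of isg15, a ubiquitin-like modifier induced by interferon, with 32.8, 10.4 and 30.1 in PCSK7+p53 embryos and 355, 385 and 595 in control embryos (19.9-fold, log2 -4.32, SE 0.38, adjusted p = 5.15e-06). The histone gene hist1h2a2 had 1.18, 1.38 and 1.37 in PCSK7+p53 embryos and 19.1, 14.9 and 18.6 in control embryos (log2 -3.74, SE 0.21). It read just above background in PCSK7+p53 embryos on every array. The Rh family gene rhd had 22.8, 36.9 and 49.7 in PCSK7+p53 embryos and 236, 257 and 231 in control embryos (log2 -2.80, SE 0.27). For this gene the control arrays lay close together and the PCSK7+p53 arrays were several-fold lower. The rhodopsin gene rho fell by 2.55 on 1 of 2 probes (the other gave -0.09). The other falls described were zgc:112163, rpz5, ms4a17a.2, zgc:154164, the Cdk5 activator gene cdk5r1a, and the p53 and FoxO genes phlda3 and foxo3b described below, all between -2.83 and -2.55.

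**Figure D2:**
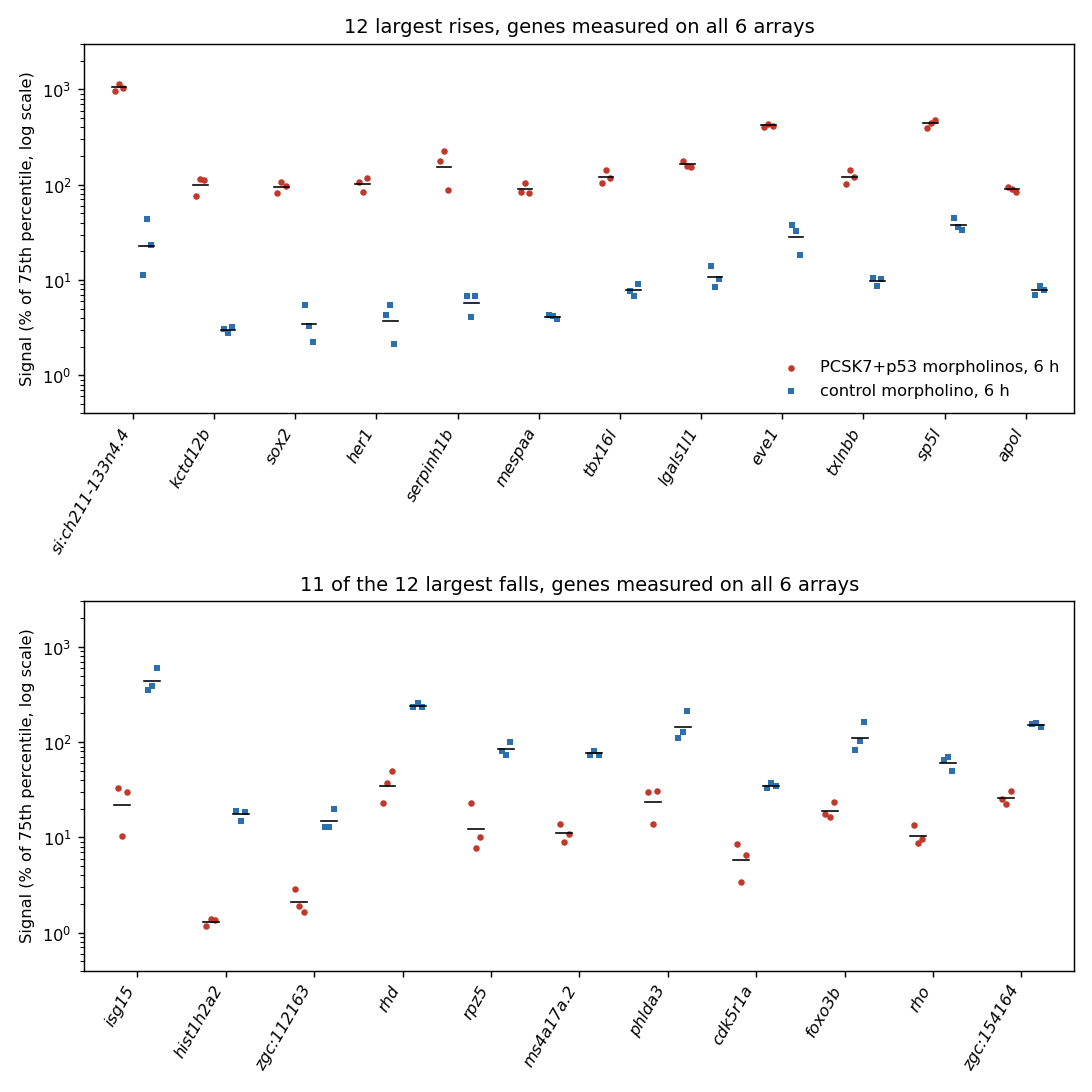
Relative signal (percent of the 75th percentile, log axis) of the 12 genes with the largest rises (upper panel) and 11 of the 12 with the largest falls (lower panel), with PCSK7+p53 embryos as red circles left of control embryos as blue squares, 1 point per array, and geometric means as bars. No gene has overlapping groups, which was a condition for the choice of these genes. The spread within a group is widest for the control arrays of si:ch211-133n4.4 and for the PCSK7+p53 arrays of isg15.

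Mesoderm genes were mostly higher in PCSK7+p53 embryos. Of 28 ventral and posterior mesoderm genes listed, 22 were tested. Of these 15 rose (68.2%, against 35.5% of all genes), 12 of them at least 2-fold (54.5%, against 7.9%). A further 3 fell (13.6%, against 30.4%), and the median was 1.09. Under normexp 8 of the 22 rose at least 2-fold, against 286 of all 11213 genes, and the median was 0.58. Of the 12, 2 were not above background on every control array. By the brightest probe of each gene, the largest of these rises was that of kctd12b, described above. Of 29 genes of the segmentation clock and the presomitic mesoderm tested among 37 listed, 18 rose (62.1%), 16 at least 2-fold (55.2%), and 5 fell (17.2%, median 1.5). For 7 of these 16 the control signal was not above background on every array. With normexp 9 of the 29 rose at least 2-fold, against 286 of all 11213 genes, and the median was 0.06. The gene msgn1 stands in both lists, and sox2 in the segmentation and the neural list. In whole embryos a larger number of cells of a type and more RNA per cell cannot be told apart.

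The T-box factor tbxta (Brachyury), expressed at the margin and in the notochord, had 440.1, 528 and 419 in PCSK7+p53 embryos and 124, 111 and 87.8 in control embryos (log2 2.11, SE 0.15, adjusted p = 1e-06). The groups were well apart, and control replicate 3 was the lowest of all 6. The ventral homeobox gene eve1 had 408, 439 and 411 in PCSK7+p53 embryos and 37.5, 32.4 and 18.5 in control embryos (14.8-fold, SE 0.20 on the log2 scale). The T-box gene tbx16l, a paraxial mesoderm factor, had 105, 141 and 117 in PCSK7+p53 embryos and 7.58, 6.79 and 9.12 in control embryos (15.4-fold, SE 0.14). For these 3 genes the lowest PCSK7+p53 array was several-fold above the highest control array.

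The caudal factor cdx4, which patterns the posterior body, had 51.3, 69.1 and 60.6 in PCSK7+p53 embryos and 3.14, 2.96 and 1.35 in control embryos, where 2 of 3 arrays were above background, so that it was at least 24.5-fold higher. The bHLH gene msgn1, a switch of presomitic mesoderm named after its values were seen, had 133, 147 and 162 in PCSK7+p53 embryos and 24.4, 24.6 and 20.6 in control embryos (log2 2.67, SE 0.12, 4 of 4 probes). Not every ventral gene was higher. The apelin receptor gene aplnra had 171, 151 and 175 in PCSK7+p53 embryos and 335, 337 and 304 in control embryos and fell by 0.97 (SE 0.09), the Wnt ligand gene wnt8a fell by 0.73, and cdx1a by 0.29, the last without a call when either replicate 2 was left out.

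Genes of the clock that later times somite formation followed. The hairy-related repressor her1 had 106, 83.0 and 117 in PCSK7+p53 embryos and 4.27, 5.47 and 2.14 in control embryos (27.4-fold, log2 4.78, SE 0.29, adjusted p = 4.86e-07). The Notch ligand gene dlc had 81.0, 64.8 and 79.9 in PCSK7+p53 embryos and 4.07, 5.24 and 1.41 in control embryos, where it was above background on 2 of 3 arrays, and was at least 23.2-fold higher. Control signals of both genes were thus only a few percent of the 75th percentile. The bHLH gene mespaa had 84.0, 103 and 82.6 in PCSK7+p53 embryos and 4.28, 4.17 and 3.88 in control embryos (21.8-fold, SE 0.11), and ripply1, a repressor at the forming somite boundary, was at least 4.81-fold higher. Under normexp, which adds an offset that shrinks the changes of dim genes, her1 rose by 2.69, mespaa by 2.63 and ripply1 by 0.42. The Notch modifier lfng went the other way, with 1625, 1281 and 1475 in PCSK7+p53 embryos and 2942, 2982 and 2869 in control embryos (log2 -1.01, SE 0.08). The clock-associated repressor gene her11 fell by 0.97 and fgf17 by 0.70, and ripply2 fell by 0.75 with overlapping groups and no call without PCSK7+p53 replicate 1 or 2 or control replicate 2.

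These genes were also read at 24 h, when the groups lay closer together for her1 and tbxta. At that time her1 had 36.8, 28.9 and 24.7 in PCSK7+p53 embryos and 35.97, 36.8 and 41.9 in control embryos, and tbxta had 80.0, 63.0 and 75.8 in PCSK7+p53 embryos and 56.2, 46.1 and 51.0 in control embryos. At 24 h the her1 arrays of the 2 groups overlapped, and those of tbxta did not.

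**Figure D3:**
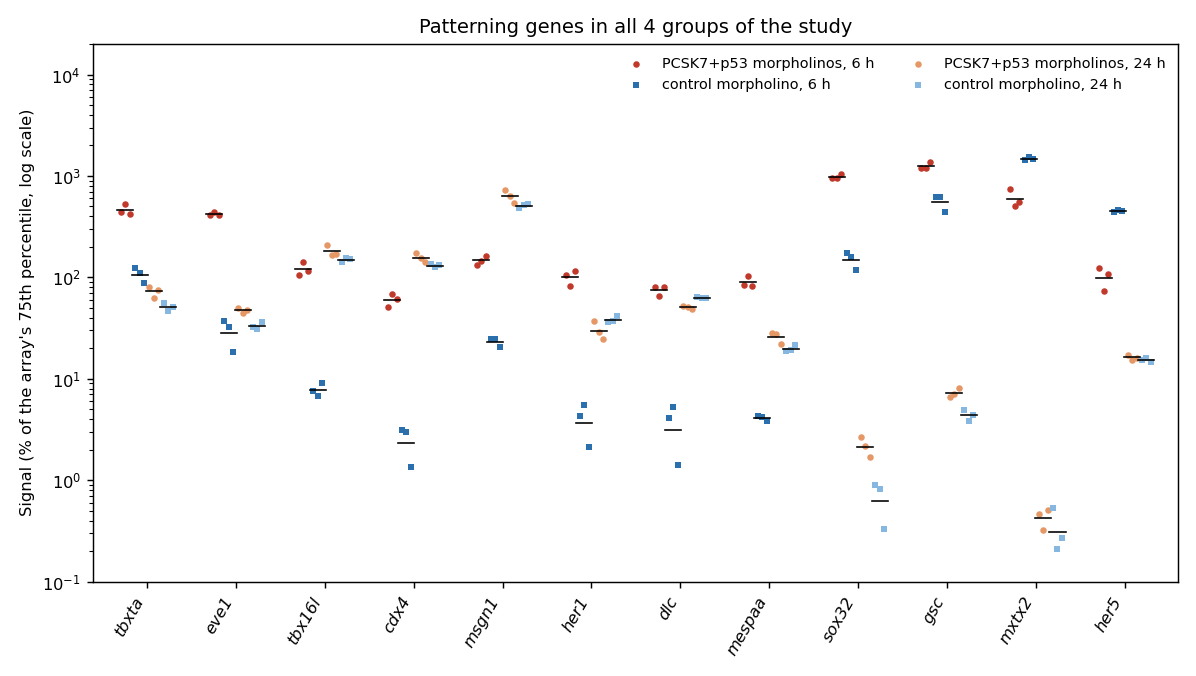
Relative signal (percent of the 75th percentile, log axis) of 12 patterning genes in the 4 groups, 1 point per array with geometric means as bars; from left to right in each gene PCSK7+p53 and control embryos at 6 h, then PCSK7+p53 and control embryos at 24 h. At 6 h the PCSK7+p53 arrays lie above the control arrays for the first 10 genes and below them for mxtx2 and her5.

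Genes of the dorsal organizer and its axial mesendoderm, the signalling centre that induces the body axis, were also higher. Of 26 tested among 29 listed, 19 rose (73.1%, against 35.5% of all genes), 13 at least 2-fold (50%, against 7.9%). Only 2 fell (7.69%, against 30.4%), and the median was 0.91. Under normexp 7 of the 26 rose at least 2-fold, against 286 of all 11213 genes, and the median was 0.56. Of the 13, 2 were not above background on every control array. The Wnt and Nodal target sp5l had 398, 449.7 and 475 in PCSK7+p53 embryos and 45.0, 35.8 and 33.3 in control embryos (11.7-fold, log2 3.54, SE 0.11, 4 of 4 probes). The Wnt antagonist gene frzb had 24.998, 27.1 and 27.3 in PCSK7+p53 embryos and 6.74, 4.80 and 4.82 in control embryos (log2 2.30, SE 0.13). The homeobox gene hhex, active in the dorsal yolk syncytial layer and anterior endoderm, had 97.2, 105 and 124 in PCSK7+p53 embryos and 30.5, 22.7 and 22.6 in control embryos (log2 2.11, SE 0.13). None of these groups overlapped. Of the gastrula markers in this list, named whatever their values, gsc, a homeobox factor of the organizer's prechordal part, had 1193, 1202 and 1381 in PCSK7+p53 embryos and 623, 617 and 442 in control embryos (log2 1.18, SE 0.15). On the other side, col8a1a, a collagen gene, fell by 0.87 (SE 0.09) and admp, an organizer BMP, by 0.73 (SE 0.15). The BMP antagonist gene chrd, another such marker, had 33.5, 35.1 and 34.8 in PCSK7+p53 embryos and 39.5, 35.2 and 38.8 in control embryos and no call (log2 -0.13, adjusted p = 0.512).

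The endoderm list was mixed, with 6 of 13 tested genes higher (46.2%, against 35.5% of all genes) and 3 lower (23.1%, against 30.4%). The Sox factor sox32, which commits cells to endoderm, had 957, 951 and 1034 in PCSK7+p53 embryos and 172, 158 and 119 in control embryos (6.62-fold, log2 2.73, SE 0.33, adjusted p = 4.29e-05). No control array came near the PCSK7+p53 arrays. The upstream factors gata5 and mixl1 rose by 1.05 (SE 0.12) and 0.89 (SE 0.22), and gata6 by 0.94 on 1 of 3 probes, which differed in sign. The Hippo cofactor vgll4l, a gene of the dorsal forerunner cells, had 484, 409 and 468 in PCSK7+p53 embryos and 1285, 1261 and 1085 in control embryos and fell by 1.42 (SE 0.11). The T-box gene eomesb fell by 1.14 on 1 of 2 probes, and the sphingosine receptor gene s1pr2 by 0.54.

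Neural ectoderm genes split. Of 31 tested among 40 listed, 15 rose (48.4%, against 35.5% of all genes), 7 of them at least 2-fold (22.6%, against 7.9%). A further 11 fell (35.5%, against 30.4%), 1 of them at least 2-fold. The sign of the list's median of 0.11 turned under normexp. Beside sox2, the Delta ligand gene dlb had 15.9, 21.0 and 17.6 in PCSK7+p53 embryos and 1.804, 1.54 and 1.77 in control embryos (log2 3.41, SE 0.10). The repressor her3, which keeps neural plate cells from differentiating, had 80.5, 121 and 111 in PCSK7+p53 embryos and 12.7, 12.2 and 15.5 in control embryos (log2 2.94, SE 0.14), and its relative her9 rose by 2.51. The largest fall was also that of a hairy-related repressor. The midbrain-hindbrain gene her5, which marks early endoderm as well, had 124, 73.7 and 107.2 in PCSK7+p53 embryos and 446, 463 and 455 in control embryos (log2 -2.20, SE 0.15, adjusted p = 9.95e-07). The proneural gene neurog1 fell by 0.87, the forebrain factor fezf2 by 0.84 and the Iroquois gene irx7 by 0.73 (SE 0.13, 0.22 and 0.10).

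Non-neural ectoderm, which gives epidermis and placodes, had 8 of 22 tested genes higher (36.4%, against 35.5% of all genes) and 10 lower (45.5%, against 30.4%), with a median of -0.19. At least 2-fold changes were 6 rises (27.3%, against 7.9%) and 3 falls (13.6%, against 5.19%). The falls included factors of the preplacodal and epidermal ectoderm. The distal-less gene dlx3b had 8.10, 5.54 and 6.43 in PCSK7+p53 embryos and 24.1, 28.1 and 22.04 in control embryos (log2 -1.90, SE 0.13). The forkhead gene foxi1, an otic competence factor, had 43.8, 31.8 and 40.0 in PCSK7+p53 embryos and 112, 134 and 167 in control embryos (log2 -1.84, SE 0.15). The Krueppel-like gene klf2a fell by 0.97, and for tfap2c 1 of 5 probes fell, by 1.05, while the others ranged from 0.02 to 1.24. Other genes of the list rose. The homeobox gene msx1b had 78.7, 82.1 and 67.9 in PCSK7+p53 embryos and 22.9, 19.3 and 22.3 in control embryos (log2 1.83, SE 0.09), and the Id repressor id3 had 321, 341 and 315 in PCSK7+p53 embryos and 101, 86.8 and 98.9 in control embryos (log2 1.77, SE 0.10).

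The enveloping layer, the outer epithelium of the gastrula, had all 29 of its genes on the array above background. Of these 17 rose (58.6%, against 35.5% of all genes), 12 at least 2-fold (41.4%, against 7.9%), and 6 fell (20.7%, against 30.4%, median 0.43). The S100-type gene icn2 (ictacalcin) had 136, 119.8 and 106 in PCSK7+p53 embryos and 16.7, 18.2 and 16.8 in control embryos (log2 2.80, SE 0.11), and its paralog icn had 161, 144 and 121 in PCSK7+p53 embryos and 22.1, 22.6 and 20.6 in control embryos. Whether a probe of one reads both was not tested. The keratin gene krt17 had 487, 482 and 519.5 in PCSK7+p53 embryos and 95.8, 116 and 81.4 in control embryos (log2 2.36, SE 0.11, 2 of 2 probes). In these 3 genes the lowest PCSK7+p53 array lay several-fold above the highest control array. The disulphide isomerase gene agr1 was above background in PCSK7+p53 embryos only, at least 9.84-fold higher. The protease inhibitor gene spint1b fell, with 47.7, 45.1 and 47.7 in PCSK7+p53 embryos and 145, 134 and 129 in control embryos (log2 -1.54, SE 0.16). The claudin gene cldng, of the tight junctions, fell by 0.66, and agr2 fell by 1.00 on 1 of 2 probes. For capn12, a calpain, the brightest probe fell by 0.68 and another read 1.12.

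Beneath it lies the yolk syncytial layer, which feeds on and signals from the yolk. Of 22 tested genes 10 rose (45.5%, against 35.5% of all genes) and 8 fell (36.4%, against 30.4%), with 5 rises (22.7%, against 7.9%) and 2 falls of at least 2-fold. Under normexp 1 rise reached 2-fold, against 286 among all 11213 genes. The median was then -0.16, against 0.12 with percentile scaling. The lipid carrier genes led the rises: apoa1a had 13.04, 14.1 and 18.2 in PCSK7+p53 embryos and 3.04, 2.46 and 2.19 in control embryos (log2 2.56, SE 0.14). The fatty acid binding protein gene fabp1b.1 was 7.85-fold higher as fitted, with 2 of 3 control arrays above background. Both stayed at a low level. The lysosomal cathepsin gene ctslb had 169, 159 and 216 in PCSK7+p53 embryos and 51.4, 52.4 and 47.7 in control embryos (log2 1.83, SE 0.11). The homeobox gene mxtx2, which specifies the layer itself and Nodal expression from it, had 748, 509 and 556 in PCSK7+p53 embryos and 1430.1, 1545 and 1478 in control embryos (log2 -1.32, SE 0.30, adjusted p = 0.00317). The iron exporter gene slc40a1 fell by 1.06 and the apolipoprotein gene apoa4a by 0.82.

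Genes of gastrulation movement and cell adhesion gave 18 higher (42.9%, against 35.5% of all genes) and 11 lower (26.2%, against 30.4%) of 42 tested, with 8 rises (19%, against 7.9%) and 2 falls of at least 2-fold. Under normexp 3 rises reached 2-fold and 15 genes fell, against 286 and 4627 of all 11213 genes. The median was then 0.06, against 0.21 with percentile scaling. The chemokine gene cxcl12a, a guidance cue for migrating mesendoderm and germ cells, had 346, 301 and 287 in PCSK7+p53 embryos and 49.1, 52.8 and 37.5 in control embryos (log2 2.75, SE 0.12, 3 of 4 probes). The apelin receptor aplnrb, which drives mesendoderm migration, had 761, 658 and 622 in PCSK7+p53 embryos and 1507, 1596 and 2196 in control embryos (log2 -1.36, SE 0.13). The groups were apart for both genes, in opposite directions. The paraxial protocadherin gene pcdh8 had 17.3, 19.2 and 17.5 in PCSK7+p53 embryos and 3.33, 4.30 and 2.53 in control embryos (log2 2.44, SE 0.16). The laminin chain gene lamb1a rose by 2.32, and wnt5b, a ligand of convergent extension, was at least 4.22-fold higher with 1 of 3 control arrays above background. The planar polarity genes prickle1b and vangl2, which also act in convergent extension, fell by 1.29 (SE 0.08) and 0.63 (SE 0.15).

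**Figure D4:**
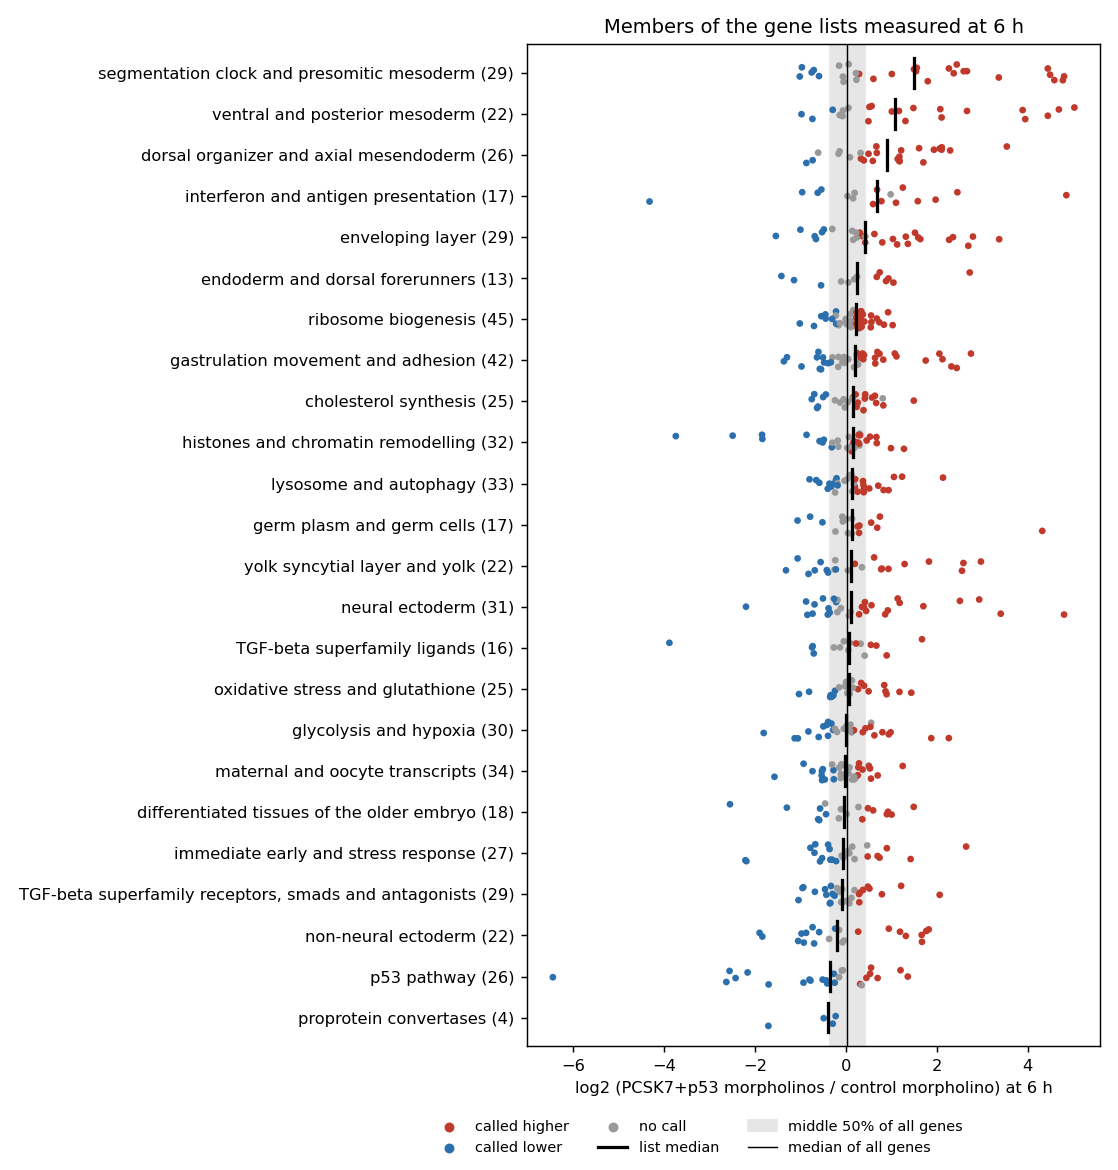
Log2 change (PCSK7+p53 over control embryos, horizontal) of the tested members of 24 gene lists, ordered by list median; each point is a gene, coloured by its call, with the number tested in brackets. Grey marks the middle 50% of all 11213 genes, and the medians of the segmentation, mesoderm, organizer and interferon lists (1.5, 1.09, 0.91 and 0.69) lie to its right.

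Of the 26 tested genes of the p53 pathway, to which the second morpholino is directed, 15 fell (57.7%, against 30.4% of all genes), 6 of them at least 2-fold (23.1%, against 5.19%), while 7 rose (26.9%, against 35.5%, median -0.34). The ribonucleotide reductase gene rrm2b, a p53 target for DNA repair, had 0.237, 0.274 and 2.95 in PCSK7+p53 embryos and 48.7, 51.0 and 50.8 in control embryos. It was above background on 1 of 3 PCSK7+p53 arrays and at least 35.5-fold lower there (adjusted p = 4.03e-05). Its fitted change of -6.44 moved between -7.62 and -5.80 when PCSK7+p53 replicate 3 or replicate 1 was left out.

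The Akt inhibitor gene phlda3 had 29.9, 13.8 and 30.6 in PCSK7+p53 embryos and 111, 127 and 212 in control embryos (log2 -2.63, SE 0.30). The forkhead gene foxo3b had 17.6, 16.3 and 23.8 in PCSK7+p53 embryos and 83.7, 102 and 163 in control embryos (log2 -2.56, SE 0.21, 3 of 3 probes). The growth arrest gene gadd45aa had 15.8, 10.1 and 16.7 in PCSK7+p53 embryos and 61.4, 69.6 and 96.6 in control embryos (log2 -2.42, SE 0.20). Control replicate 3 was the highest of its group for each of these genes. The other falls of at least 2-fold, named to complete the 6, were those of the apoptosis gene bbc3 (puma) at -2.16 and gadd45ab at -1.70. The p53 inhibitor mdm2, itself a p53 target, had 482, 452 and 552 in PCSK7+p53 embryos and 593, 616 and 789 in control embryos and fell by 0.42 (SE 0.13, adjusted p = 0.0133), with no call when PCSK7+p53 replicate 2 was left out. The other mdm2 probe fell by 1.04. The related inhibitor mdm4 rose instead, with 655, 663 and 601 in PCSK7+p53 embryos and 240.3, 230.0 and 276 in control embryos (log2 1.36, SE 0.08). The other mdm4 probe rose by 0.38. The apoptosis effector gene perp rose by 1.205 on 3 of 4 probes, the kinase gene plk3 by 0.70, and gadd45ga by 0.56.

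**Figure D5:**
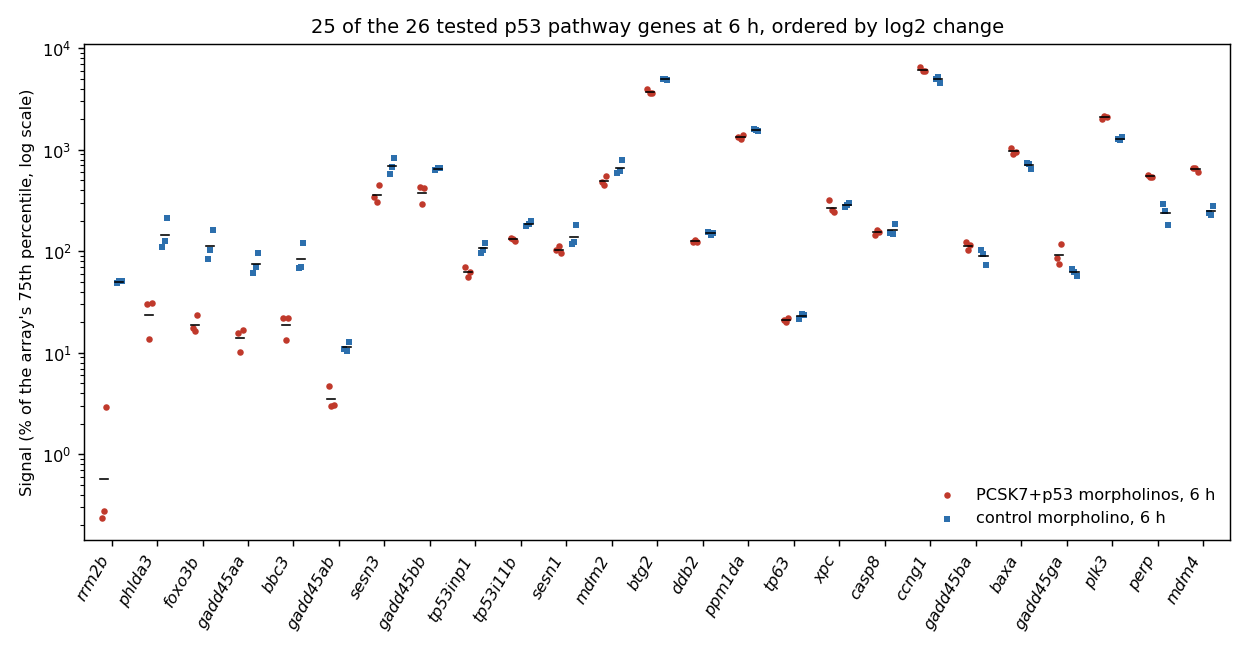
Relative signal (percent of the 75th percentile, log axis) of 25 of the 26 tested p53 pathway genes, ordered by their log2 change from the largest fall to the largest rise, with PCSK7+p53 embryos as red circles left of control embryos as blue squares, 1 point per array and geometric means as bars. The 6 genes at the left fell at least 2-fold, and perp and mdm4 at the right rose at least 2-fold.

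Immediate early and stress response genes had 12 of 27 tested genes lower (44.4%, against 30.4% of all genes) and 6 higher (22.2%, against 35.5%). At least 2-fold were 2 falls (7.41%, against 5.19%) and 2 rises (7.41%, against 7.9%). For both rises the control signal was not above background on every array, and the larger was that of dusp2, at least 3.36-fold higher. Under normexp 2 genes rose, 0 of them at least 2-fold, and 14 fell, against 3260 and 4627 of all 11213 genes. The immediate early gene fosab had 37.1, 14.5 and 25.2 in PCSK7+p53 embryos and 84.0, 107.1 and 149 in control embryos (log2 -2.21, SE 0.29, adjusted p = 7.98e-05). The mTOR inhibitor gene ddit4, induced by stress and glucocorticoids, had 155, 113 and 103 in PCSK7+p53 embryos and 596, 494 and 581 in control embryos (log2 -2.19, SE 0.21). The cytokine feedback gene socs3b fell by 0.78 and the antiproliferative gene btg1 by 0.69. The FGF feedback phosphatase gene dusp6 rose, with 591, 539 and 496 in PCSK7+p53 embryos and 315, 307 and 249 in control embryos (log2 0.90, SE 0.09), and the unfolded protein response gene ddit3 by 0.74 on 1 of 2 probes.

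Of 17 interferon and antigen presentation genes tested, 9 rose (52.9%, against 35.5% of all genes) and 4 fell (23.5%, against 30.4%), with 6 rises (35.3%, against 7.9%) and 1 fall of at least 2-fold. For 5 of the 9 the control signal was not above background on every array. Under normexp 3 rose, 1 of them at least 2-fold, and 6 fell, while 3260 of all 11213 genes rose and 4627 fell. The median was then -0.16, against 0.69 with percentile scaling. The class I gene mhc1uba was above background in PCSK7+p53 embryos only, with 16.1, 19.5 and 17.5, against 0.408, 0.549 and 1.02 in control embryos, and was at least 11.7-fold higher. The class I light chain gene b2m had 116, 121 and 118 in PCSK7+p53 embryos and 38.9, 47.2 and 33.6 in control embryos (log2 1.59, SE 0.11, 3 of 3 probes). Opposite to these, isg15 (above) and the interferon regulatory factor irf7 fell, irf7 with 16.7, 17.2 and 16.1 in PCSK7+p53 embryos and 32.3, 34.3 and 30.8 in control embryos (log2 -0.96, SE 0.09). The Mx gene mxc fell by 0.54, but its other probe gave 0.73.

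Histone and chromatin genes had 13 of 32 higher (40.6%, against 35.5% of all genes) and 9 lower (28.1%, against 30.4%), and 4 of the falls were at least 2-fold (12.5%, against 5.19% of all genes). Next to hist1h2a2, the variant histone gene h2ax, a mark of DNA breaks once phosphorylated, had 165, 158 and 201 in PCSK7+p53 embryos and 650.4, 656 and 559.7 in control embryos (log2 -1.84, SE 0.12). The histone chaperone gene asf1ba had 816, 954 and 1040.1 in PCSK7+p53 embryos and 3465, 3374 and 3189.9 in control embryos (log2 -1.84, SE 0.09). The other asf1ba probe fell by only 0.21. Histone genes are near-identical copies, so which copy a probe reads is uncertain. The de novo methyltransferase gene dnmt3ab was at least 4.05-fold lower, with 1 of 3 PCSK7+p53 arrays above background. Its fitted change was -2.49, and -3.15 without PCSK7+p53 replicate 1. The macroH2A genes rose, macroh2a2 by 1.28 and macroh2a1 by 0.99 (SE 0.06 and 0.10).

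Maternal and oocyte transcripts, loaded into the egg and cleared as the zygotic genome starts, had 9 of 34 tested genes higher (26.5%, against 35.5% of all genes) and 10 lower (29.4%, against 30.4%), 1 of each at least 2-fold. The egg chromatin gene npm2b had 1502, 1633 and 1631 in PCSK7+p53 embryos and 664, 663 and 673 in control embryos (log2 1.25, SE 0.11). The meiotic kinase gene mos had 149.7, 139.5 and 145 in PCSK7+p53 embryos and 410.2, 400.3 and 480.3 in control embryos (log2 -1.57, SE 0.09, 4 of 4 probes). The oocyte ligand gene bmp15 fell by 0.93, and the mitotic kinases aurka and plk1 by 0.73 and 0.53. Germ cell genes were likewise mixed (7 of 17 higher, 41.2%, and 3 lower, 17.6%, against 35.5% and 30.4% of all genes). The helicase gene ddx4 (vasa) rose by 0.75 on 1 of 2 probes and tdrd9 by 0.56, while nanos3 fell by 0.78 and ca15b by 1.06. The list's largest rise was prdm1a, a regulator of germ cells in mammals and of slow muscle and the hatching gland in zebrafish, with 23.0, 21.7 and 24.7 in PCSK7+p53 embryos and 1.43, 1.30 and 0.827 in control embryos (at least 15.2-fold higher).

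Ribosome biogenesis genes shifted a little and mostly upward: 25 of 45 rose (55.6%, against 35.5% of all genes), but 1 of them at least 2-fold, and 8 fell (17.8%, against 30.4%, median 0.23). The largest rise was that of mybbp1a, a nucleolar regulator, at 1.03 (SE 0.08, 5 of 6 probes), followed by polr1d at 0.93, gar1 at 0.84 and nhp2 at 0.74, the last 2 being core proteins of box H/ACA particles. The export factor gene ltv1 fell the most, with 389.9, 386 and 385 in PCSK7+p53 embryos and 793, 770.2 and 777 in control embryos (log2 -1.01, SE 0.06). Next came utp4 at -0.70, the polymerase subunit gene polr1c at -0.54, and wdr43 at -0.45.

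Metabolic lists differed in their share of large changes. Calls of at least 2-fold made up 16.7% of glycolysis and hypoxia genes and 4% of cholesterol synthesis genes, against 13.1% of all genes. Glycolysis and hypoxia genes had 10 of 30 higher (33.3%, against 35.5% of all genes) and 11 lower (36.7%, against 30.4%). At least 2-fold were 2 rises (6.67%, against 7.9%) and 3 falls (10%, against 5.19%). The sign of their median (below 0.01) turned in 4 of 6 scalings, with percentile scaling itself counted among the 6. The hexokinase gene hk1 had 41.4, 50.8 and 43.6 in PCSK7+p53 embryos and 9.89, 11.9 and 6.99 in control embryos (log2 2.27, SE 0.16), and the hypoxia factor gene epas1a rose by 1.88 (SE 0.12). The triose phosphate isomerase gene tpi1a fell, with 203, 204 and 196 in PCSK7+p53 embryos and 403, 423 and 493 in control embryos (log2 -1.12, SE 0.09), the kinase gene pgk1 fell by 0.82, and vegfaa by 1.05. For gapdhs 1 of 4 probes fell, by 1.81, and the others were between 0.31 and 0.37.

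Cholesterol synthesis had 12 of 25 genes higher (48%, against 35.5% of all genes) and 6 lower (24%, against 30.4%), and its median of 0.16 was -0.03 under normexp. The demethylase gene cyp51 rose by 1.497 (SE 0.15), idi1 by 0.83, nsdhl by 0.67 and sqlea by 0.64, whereas the pathway regulator gene insig1 fell by 0.69 on 2 of 3 probes. Lysosome and autophagy genes had 15 of 33 higher (45.5%, against 35.5% of all genes) and 10 lower (30.3%, against 30.4%). The hexosaminidase gene hexb had 87.1, 102 and 91.0 in PCSK7+p53 embryos and 21.9, 21.99 and 19.7 in control embryos (log2 2.14, SE 0.07, 5 of 5 probes), map1lc3a rose by 1.24 on 2 of 3 probes, and the proton pump gene atp6v1aa fell by 0.80. Among oxidative stress genes 9 of 25 rose (36%, against 35.5% of all genes) and 7 fell (28%, against 30.4%). The mitochondrial peroxiredoxin gene prdx3 had 918, 931 and 839 in PCSK7+p53 embryos and 446, 497 and 499 in control embryos (log2 0.90, SE 0.09), and the catalase gene cat fell by 0.81 on 2 of 3 probes. The Nrf2 gene nfe2l2a fell by 0.33 on its brighter probe and read 2.12 on the other, and keap1b, which encodes the Nrf2 inhibitor, fell by 1.03 on 1 of 4 probes against 0.17 to 0.45 on the rest.

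Genes measured in 1 group alone were mostly PCSK7+p53 genes: 256 genes with a call were above background on all 3 PCSK7+p53 arrays and on 0 control arrays, and 25 the other way round. The PCSK7+p53 arrays also had more spots above background, 71.3 to 73.4% against 67.6 to 68.6% on control arrays, and the part of this in both counts was not tested. The matrix protein gene spon1b had 23.3, 31.5 and 27.0 in PCSK7+p53 embryos and 1.08, 1.02 and 0.901 in control embryos and was at least 17.9-fold higher. The oxidoreductase gene ero1a, which drives disulphide formation in the endoplasmic reticulum, had 21.4, 31.6 and 26.9 in PCSK7+p53 embryos and 1.24, 0.952 and 0.533 in control embryos and was at least 17.4-fold higher. Both had control signals of about 1% of the 75th percentile. The creatine kinase gene ckmt1 was at least 10.5-fold higher.

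On the control side, zcchc24, which encodes a zinc finger protein, had 0.490, 0.305 and 0.291 in PCSK7+p53 embryos and 17.4, 19.8 and 18.5 in control embryos and was at least 19.1-fold lower (adjusted p = 1.67e-08). The cyclotransferase gene ggact.2 had 0.267, 0.3002 and 0.285 in PCSK7+p53 embryos and 13.04, 14.3 and 10.5 in control embryos and was at least 12.9-fold lower. Both genes lay below background on every PCSK7+p53 array. The membrane protein gene islr2 was at least 10.9-fold lower, followed by the sodium channel gene scn4aa (4.36), the TNF family gene tnfsf10l3 (4.06) and sycn.2, a syncollin gene (3.68).

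Markers of differentiated tissues of the older embryo had 18 tested genes, most of them dim. Of these 7 rose (38.9%, against 35.5% of all genes) and 6 fell (33.3%, against 30.4%). Under normexp 1 rose and 13 fell, against 3260 and 4627 of all 11213 genes. The beta crystallin gene cryba4, of the lens, had 7.87, 7.14 and 7.72 in PCSK7+p53 embryos and 14.004, 23.2 and 19.8 in control embryos and fell by 1.30 (SE 0.18). The muscle gene myhz2, above background on 0 control arrays, was at least 1.27-fold higher, with a sign that turned under normexp. For 4 of the 7 rises the control signal was not above background on every array.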

How the data were processed

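Gene expression was measured on Agilent 1-colour zebrafish arrays, 1 per pool of embryos, in 4 groups of 3. The deposited files hold per-spot intensity as scanned and read with Agilent Feature Extraction, version 10.7.1 per the submitters' processing notes. Per the file headers, PCSK7+p53 arrays were read with version 10.7.3.1 and control arrays with 10.7.1.1, and the probe annotations in these files are of different releases. The processed signal (background-subtracted, per the file headers) was used here as deposited. A second table of processed intensities deposited by the authors, covering 19838 probes, was put on the log2 scale here and served as an alternative.

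Outlier spots were left out, spots of a probe averaged, and log2 signals set relative to the 75th percentile of the 43603 non-control probes on that array. The 4 group means of all 12 arrays were fitted with limma 3.58.1 (R 4.3.3, residual degrees of freedom 8, median residual SD 0.128), and p-values were adjusted by Benjamini-Hochberg over the 30887 probes tested at 6 h. A missing value occurred in 14 of these. RefSeq accessions of GRCz12tu annotation named 26854 probes (14016 genes), and 16749 stayed unnamed. A gene is represented by its tested probe of highest mean at 6 h. Where a group was not well above background on all its arrays, "at least N-fold" sets the other group's mean against the higher of the lowest well-measured signal and the probe's own, array by array.

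The members and gene lists were chosen with earlier results of these data known. Named are the 12 largest rises and 12 largest falls of genes that all 6 arrays measured above background, the 6 largest bounds in each direction, tgfb1a and mdm2, and up to 4 called genes per direction and list. The largest rises and falls were taken from the 5790 such genes with a call, groups that did not overlap and tested probes of the same sign. Exceptions are stated, and 2 genes that the rule names are not reported here. The labels do not say that same-numbered pools share a clutch or day, and their deviations did not move together (correlations -0.10 to -0.01). No spot was saturated at 6 h. The number of arrays, 3 a group, limits the precision. The fit was tested on simulated data. Alternatives comprised normexp with a local background capped at its 99th percentile (offset 50), quantile, cyclic loess and median scaling, other filters, samples, priors and blocks, the deposited values, and leaving out each array.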

Additional observations from a re-analysis of the deposited data

Results flagged for a closer look

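The change between PCSK7+p53 and control embryos differed between 24 h and 6 h for 37 of the 39 genes tested this way, by limma's test of the difference itself (24 h minus 6 h, log2, adjusted over all tested probes). Most of these genes were named for the size of their change at 6 h, which is part of the difference, so the values are a description. The share of all tested genes that differed this way is not given here, so the count cannot be set against it. By the same limma test furinb had no such difference (0.33, adjusted p = 0.102), and neither had furina (-0.22, adjusted p = 0.112). The furinb change was -1.70 at 6 h and -1.37 at 24 h, and that of furina -0.22 and -0.44, all with a call. At both times morpholino, slide and scan session cannot be told apart. The PCSK7+p53 arrays at 6 h lay on one slide and those at 24 h on another, whereas control arrays of both times shared slides. Within PCSK7+p53 embryos time and slide therefore cannot be told apart either, and the differences given here hold both.

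Among the genes that rose at 6 h, those of mesoderm and axis had the differences kctd12b -4.71, her1 -5.13, mespaa -4.06, tbx16l -3.66, eve1 -3.36 and sp5l -3.62, and the neural factor sox2 had -4.43. At 24 h the her1 change was -0.36 and that of sox2 0.37, neither with a call. The other large rises gave si:ch211-133n4.4 -5.78, serpinh1b -2.72, lgals1l1 -3.81, txlnbb -3.60 and apol -2.78. Of these serpinh1b and apol were still higher at 24 h, by 2.00 and 0.74, both with a call. Genes above background in PCSK7+p53 embryos only at 6 h gave spon1b -4.44, ero1a -4.15, prdm1a -4.09, mhc1uba -1.98, ckmt1 -4.15 and agr1 -3.82. Their control signals at 6 h were below background, so these values are fitted differences with no measured fold behind them. The class I gene mhc1uba remained above background in PCSK7+p53 embryos only at 24 h, on all 3 arrays against 0 control arrays.

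The genes that fell at 6 h had positive differences. For the p53 and interferon genes they were isg15 4.65, phlda3 3.14, foxo3b 2.61 and mdm2 0.89. The change of mdm2 was -0.42 at 6 h and 0.47 at 24 h, both with a call. For tgfb1a the difference was 3.68 and the change at 24 h was -0.20, with no call. The other falls gave hist1h2a2 0.95, zgc:112163 3.19, rhd 1.099, rpz5 3.25, ms4a17a.2 1.67, cdk5r1a 2.80, rho 1.36 and zgc:154164 2.40. Of these hist1h2a2, rhd, ms4a17a.2 and rho were still lower at 24 h, by 2.79, 1.70, 1.11 and 1.19, all with a call. By then hist1h2a2 was above background on 0 PCSK7+p53 arrays and 2 control arrays. Genes above background in control embryos only at 6 h gave zcchc24 5.83, islr2 3.77, scn4aa 3.31, tnfsf10l3 3.40 and sycn.2 2.21. The cyclotransferase gene ggact.2 went the other way, with a difference of -2.82 and a change of -8.28 at 24 h. These last fitted changes rest on PCSK7+p53 signals below background and are not fold changes. At 24 h islr2 and scn4aa were lower by 0.41 and 0.50 and tnfsf10l3 was higher by 0.77, all with a call.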

How the results depend on the processing

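Of 203 named genes, 163 kept direction and call under every alternative that gave a value. Among 3613 values 26 turned sign and 40 lost the call. Probes called and at least 2-fold numbered 1348 and genes 591 under capped normexp, an alternative chosen after seeing the data, against 4172 and 1468. Capped normexp starts from the median spot signal in place of the processed signal, removes the capped local background and adds an offset. An offset shrinks the changes of dim genes, but the share of each step was not tested. With it 64 named genes moved by over 1.5 times, such as sox2 to 2.68, kctd12b to 2.93, mhc1uba to 0.83, tgfb1a to -1.50 and rrm2b to -2.59. In contrast eve1 stayed at 3.45 and isg15 at -3.77. The deposited table, which holds fewer probes, gave 9413 probes called and 1690 at least 2-fold. Leaving out 1 array at a time gave 17743 to 18783 probes called (4059 to 4353 at least 2-fold) and 6803 to 7124 genes (1442 to 1526 at least 2-fold). Replicate numbers did not pair the samples, and with a replicate block 18848 probes were called and 1 named gene, mbtps1, lost its call. With slide as a random block, 20316 probes were called, at a fitted correlation within slides of -0.11. No slide held both groups, so this block cannot remove a slide effect from the comparison. Scan session as a block could not be fitted and plain normexp failed on 3 arrays, so neither was run.

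Signs turned under capped normexp for fsta (-0.27), cebpd (-0.14), hmox1a (-0.048), gstp1.1 (-0.0059), psmb8a (-0.21), stat1b (-0.17), grna (-0.41), myhz2 (-0.25), mylpfa (-0.33), tnnt3b (-0.10) and pmela (-0.015). Quantile scaling turned fthl27 (0.13), and the deposited values turned fthl27 (0.19), nfe2l2a (1.90), tfap2c (1.01), capn12 (0.90) and snap25a (0.38). The median over a gene's probes turned gdf6a (-0.45), tgif1 (-0.22), keap1b (0.37), nfe2l2a (0.89), mxc (0.10), tfap2c (0.25), gapdhs (0.34), srebf2 (0.21) and tnnt3b (-0.21). The deposited table holds fewer probes, so a gene there can be read from another of its probes. With percentile scaling nfe2l2a, tfap2c, capn12, snap25a and fthl27 each had another probe of positive sign (2.12, up to 1.24, 1.12, 0.54 and 0.13). The cause was not tested for the signs that turned under capped normexp, quantile scaling and the deposited values.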
